A study of Oryza sativa with 6 samples.

Results

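Leaves of rice (Oryza sativa) seedlings infested with the fall armyworm, Spodoptera frugiperda, a leaf-chewing caterpillar, for 12 h were compared with leaves of uninfested control seedlings, by peak lists of histone H3 acetylated at lysine 9 (H3K9ac). The comparison takes 4 of the 6 libraries of the series, 2 from leaves infested for 12 h and 2 controls, and uses the peaks on the 12 nuclear chromosomes. Peaks sharing 1 bp or more across the 4 lists were merged, which gave 14671 regions, and merging all 6 lists of the series gives 17468. All seedlings were 20 days old and grown in soil in a greenhouse, and per the labels leaf nuclei were profiled by CUT&Tag, in which an antibody brings a transposase to the marked chromatin. The series record instead speaks of seedlings as a whole; the tissue is called leaf here after the sample labels. The labels give neither a cultivar nor a genotype, and they give the controls no harvest time. Nothing in them says whether the replicates came from separate plants or were pooled, so a p-value here measures only the spread between libraries, which may be technical. Positions refer to build IRGSP-1.0. The regions are named by them, because no gene annotation or sequence of that build was used here, and for the same reason the leaf label was not checked against marker genes.

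H3K9ac is placed by histone acetyltransferases and removed by deacetylases, and it lies mostly over the promoters and first nucleosomes of active genes. Chewing insects set off wound and jasmonate signalling in rice leaves, which changes the transcription of many defence and growth genes within hours. A peak list records where the mark stood clear of its surroundings in 1 library. A region missing from a list did not pass that library's threshold, which is not the same as having no acetylation.

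After 12 h of infestation the lists held more regions and more bases than the control lists. The 12 h libraries had 11318 and 11029 regions, against 4671 and 5174 in control libraries, and the 2 groups did not overlap. The means were 11173.5 ± 204 regions at 12 h and 4922.5 ± 356 in control (SD, n = 2 each), a ratio of 2.27. Covered length was 7.61 and 7.93 Mb at 12 h and 3.04 and 3.49 Mb in control, a log2 ratio of 1.25. Each difference gave an exact two-sided permutation p of 0.333 (adjusted p = 0.333 over 4 tests), the smallest that 2 libraries against 2 can give. The genome background of each library, the smallest local background in its list, was 4.31 and 3.84 fragments per kb in the 12 h libraries and 6.52 and 5.25 in the controls. This value is read here as a measure of sequencing depth and not of stray signal. It was lower in both 12 h libraries, and its part in list length was not tested. Median summit coverage was 14 and 13 fragments per peak at 12 h and 17 and 15 in control. Coverage this low limits how finely a single region can be ranked. Fragments amplified by PCR are not independent molecules.

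The 4 lists agreed in full on 2798 regions, 19.1% of the merged set. In the 12 h lists alone, both of them called another 3676 regions (25.1%), and in the control lists alone both called 197 (1.34%). Between these classes lay 1838 regions called in both 12 h lists and 1 control list, and 209 called in both control lists and 1 12 h list. Single calls in 1 of the 12 h lists numbered 4557 and single calls in 1 of the control lists 825. Of the 3204 regions that both control lists called, 87.3% were therefore called in both 12 h lists, while 33.7% of the 8312 regions of both 12 h lists were called in both control lists. The class called only at 12 h held 5916 or 5993 regions when 12 h replicate 1 or 2 was dropped. The control-only class held 308 regions when 12 h replicate 1 was dropped, and 602 or 617 when control replicate 1 or 2 was. With lists cut to equal length the 2 one-sided classes came to 717 at 12 h and 673 in control.

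At the 2798 regions called in all 4 lists, the order of acetylation strength was less alike between the groups than between replicates. Strength is the authors' fold of the strongest summit over the local background of its own library. It was ranked within each list among these same 2798 regions, as a percentile with 100 as the strongest, because ranks over lists of unequal length cannot be compared. In 592 regions (21.2% of those compared) both 12 h ranks lay above both control ranks, and in 678 regions (24.2%) both lay below. The other 1528 regions had ranks that overlapped between the groups. Ranks of a single region cannot reach a p under 0.05 with 2 libraries a group, so these counts carry no test. Lists without a group difference would also place regions in both classes, and that share was not computed. Across regions, Spearman's rho of fold was 0.63 between the 12 h replicates, 0.51 between the control replicates and 0.39 to 0.44 between a 12 h and a control list; these points share libraries and are given as a description. The median gap between the mean ranks of the groups was 29.8 percentile points in the higher class and -27.8 in the lower class. Dropping 12 h replicate 1 or 2 gave 1003 or 990 regions in the higher class and 1042 or 1055 in the lower, and dropping control replicate 1 or 2 gave 1395 or 1272 higher and 1453 or 1323 lower.

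**Figure D1:**
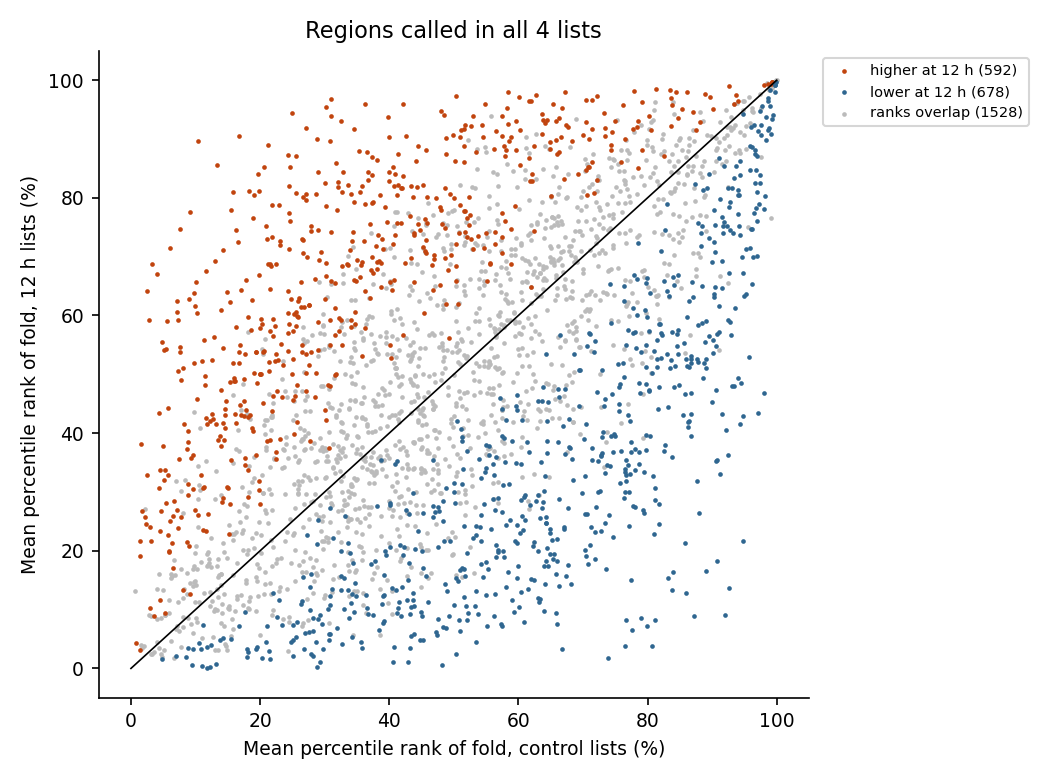
Mean percentile rank of fold in the 12 h lists (vertical axis, %) against that in the control lists (horizontal axis, %) for the 2798 regions called in all 4 lists; each point is a region and the line marks equal rank. The 592 orange regions ranked higher in both 12 h lists than in both control lists, the 678 blue ones lower, and the 1528 grey ones overlapped.

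The rank change is relative, since folds as a whole were larger in the 12 h lists. Median fold at the shared regions was 4.75 and 4.71 at 12 h and 3.84 and 4.04 in control. Unranked, the fold was larger in both 12 h lists than in both control lists at 1471 regions (52.6%) and smaller at 183 (6.54%). Regions of the higher class had a median fold of 5.42 and 5.38 in the 12 h lists, against 3.46 and 3.60 in the control lists. Regions of the lower class had nearly equal folds in both groups, 4.20 and 4.17 at 12 h and 4.29 and 4.56 in control. Their medians were above those of the higher class in control and below them at 12 h. The classes were made from the ranks of these same folds, so this crossing follows from the rule and is no further result.

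The region with the widest upward gap lay on chr4:21757772-21758718. Its fold was 6.03 and 7.11 in the 12 h lists and 3.05 and 3.07 in the control lists, which put it at percentiles 84.0 and 95.3 at 12 h and 11.9 and 8.77 in control. Its summit stood on 20 and 27 fragments at 12 h and on 14 and 11 in control, and the 3 h lists of the series gave it folds of 6.58 and 4.80. It was thus among the stronger shared regions in both 12 h lists and among the weakest in both control lists.

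Next came chr7:27149051-27149862, whose fold was 6.07 and 7.29 at 12 h, against 3.07 and 3.42 in control. On chr6:11461587-11462362 the folds were 5.91 and 6.44 at 12 h and 2.96 and 3.34 in control. At 3 h this chromosome 6 region had folds of 3.34 and 3.25, close to its control values. The region chr4:18606632-18607270 had fold values of 9.10 and 6.46 at 12 h, against 3.78 and 2.83 in control. This was the largest 12 h fold of the 8 regions, and its ranks in the 2 control lists, 46.4 and 3.47, were far apart.

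On chr11:8905846-8907180, folds were 6.41 and 5.25 at 12 h and 2.86 and 3.18 in control. The region chr3:21410369-21411406 had 6.19 and 6.59 at 12 h and 2.96 and 3.70 in control. The remaining pair was chr1:419578-420447, with 6.89 and 4.87 at 12 h and 3.05 and 2.83 in control, and chr6:8551240-8552296, with 7.41 and 7.59 at 12 h and 3.46 and 3.64 in control. In all 8 of these regions the 2 groups were separated by choice of the rule, and the chromosome 6 region from 8551240 had the closest replicates, at percentiles 96.4 and 97.0 at 12 h and 30.9 and 31.2 in control.

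The widest downward gap was on chr5:21078786-21079809. Its fold was 3.40 and 3.48 at 12 h and 5.31 and 5.70 in control, at percentiles 8.06 and 9.99 at 12 h and 91.4 and 92.4 in control. Its summit coverage was 14 fragments in each 12 h library and 34 and 40 in the controls. It was among the weakest shared regions in both 12 h lists and among the strongest in both control lists, and its 3 h folds, 4.09 and 4.14, lay between.

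The region chr1:36151239-36152169 had a fold of 3.55 and 3.71 at 12 h, against 5.42 and 5.75 in control. The region chr6:27620134-27621573 had 3.43 in each 12 h list, against 4.68 and 5.74 in control. On chr11:17236757-17237485 the folds were 3.21 and 2.88 at 12 h and 4.65 and 4.95 in control. These 3 regions also had fewer fragments at the summit, 6 to 17 at 12 h and 17 to 51 in control.

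The region chr12:27309995-27311088 had a fold of 3.39 and 3.76 at 12 h, against 5.12 and 5.03 in control. The region chr6:6027954-6029237 had 3.48 and 4.27 at 12 h and 5.47 and 6.29 in control. The last pair was chr9:18038414-18039122, at 3.73 and 2.59 at 12 h and 4.65 and 4.99 in control, and chr1:43116061-43117094, at 2.97 and 3.19 at 12 h and 4.16 and 5.38 in control. The chromosome 9 region differs from the others in its fragments, 21 and 15 at 12 h and 21 and 20 in control. There the local background was 3.29 and 3.62 times the genome background at 12 h and 1.53 and 1.60 times in control.

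**Figure D2:**
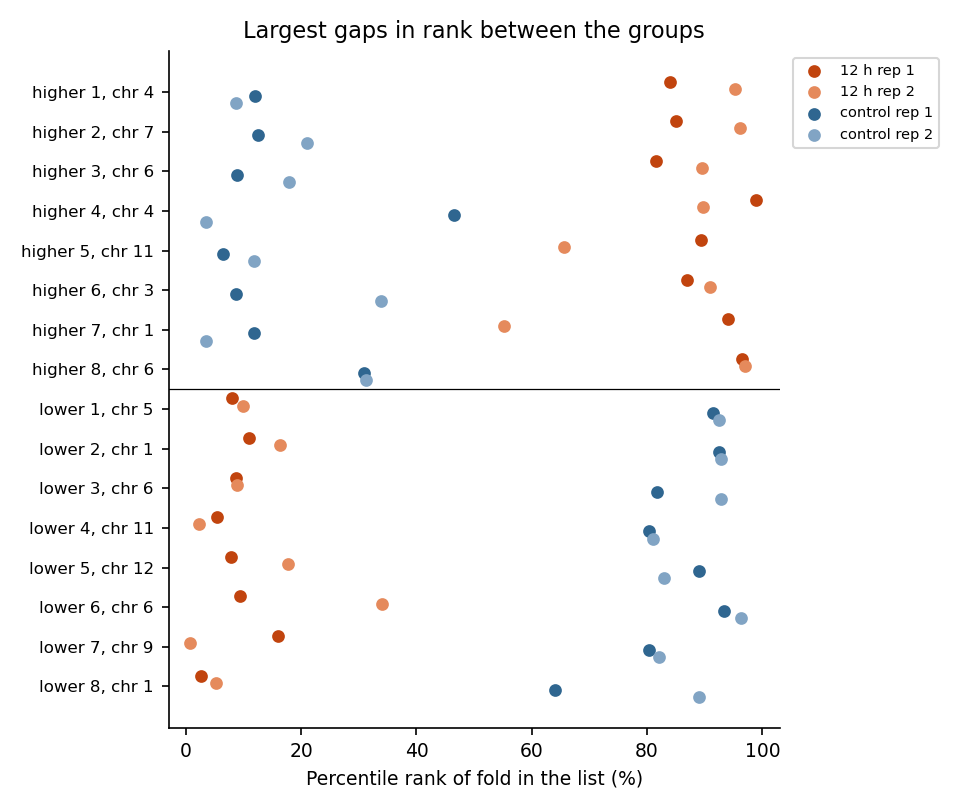
Percentile rank of fold (horizontal axis, %) of the 8 regions with the largest upward gap (top) and the 8 with the largest downward gap (bottom), labelled by chromosome; each point is 1 library, 12 h in orange and control in blue. The regions were chosen because the groups do not overlap, and the gaps run from 65.7 to 79.3 percentile points upward and from -72.7 to -82.9 downward.

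Called width, the stretch over which a list found the mark, was larger at 12 h at the same shared regions. Its median was 892 and 921 bp in the 12 h libraries and 679.5 and 727.5 bp in the control libraries, with no overlap. The means of these medians were 906.5 ± 20.5 bp at 12 h and 703.5 ± 33.9 bp in control (SD, n = 2 each), a ratio of 1.29 and a log2 ratio of 0.37 (exact permutation p = 0.333, the smallest possible; adjusted p = 0.333 over 4 tests). Over whole lists the gap was smaller, with median widths of 601 and 647 bp at 12 h and 563 and 590 bp in control (exact permutation p = 0.333). In bp, 1398 shared regions (50%) were wider in both 12 h lists than in both control lists and 236 (8.43%) were narrower. Relative to the median of each library, 571 (20.4%) were wider and 853 (30.5%) were narrower. The balance of wider and narrower regions thus turns with the scale, and relative widths are used below. Dropping 12 h replicate 1 or 2 gave 915 or 886 wider, and dropping control replicate 1 or 2 gave 1281 or 1134 wider and 1736 or 1625 narrower.

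At the median each edge lay further out at 12 h, though often only 1 edge did so in a given region. Edges are taken by coordinate, since gene direction was not known. At the 2529 regions with exactly 1 call in every list, the lower-coordinate edge lay a median of 73.5 bp further out at 12 h and the higher-coordinate edge 72 bp further out. Both edges were further out in 51.4% of these regions, 1 edge in 38.9% and neither in 9.65%. The position of the strongest summit differed by a median of 116 bp between the 12 h replicates, 120 bp between the control replicates and 118 to 132 bp between a 12 h and a control list. More regions held several summits at 12 h, 24.6% and 22.4% of the shared regions, against 14.7% and 14.2% in control.

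Regions that ranked lower were relatively narrow more often than the shared regions as a whole. Of the 592 regions that ranked higher at 12 h, 28.4% were also relatively wider and 15.9% relatively narrower. Of the 678 that ranked lower, 12.2% were wider and 48.4% narrower. Over all 2798 shared regions 20.4% were wider and 30.5% narrower, and where ranks overlapped 20.9% and 28.2%. These shares describe classes made from the same libraries. Median width in the higher class was 875 and 920 bp at 12 h and 588.5 and 676 bp in control, and in the lower class 938 and 955.5 bp at 12 h and 841 and 890 bp in control.

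**Figure D3:**
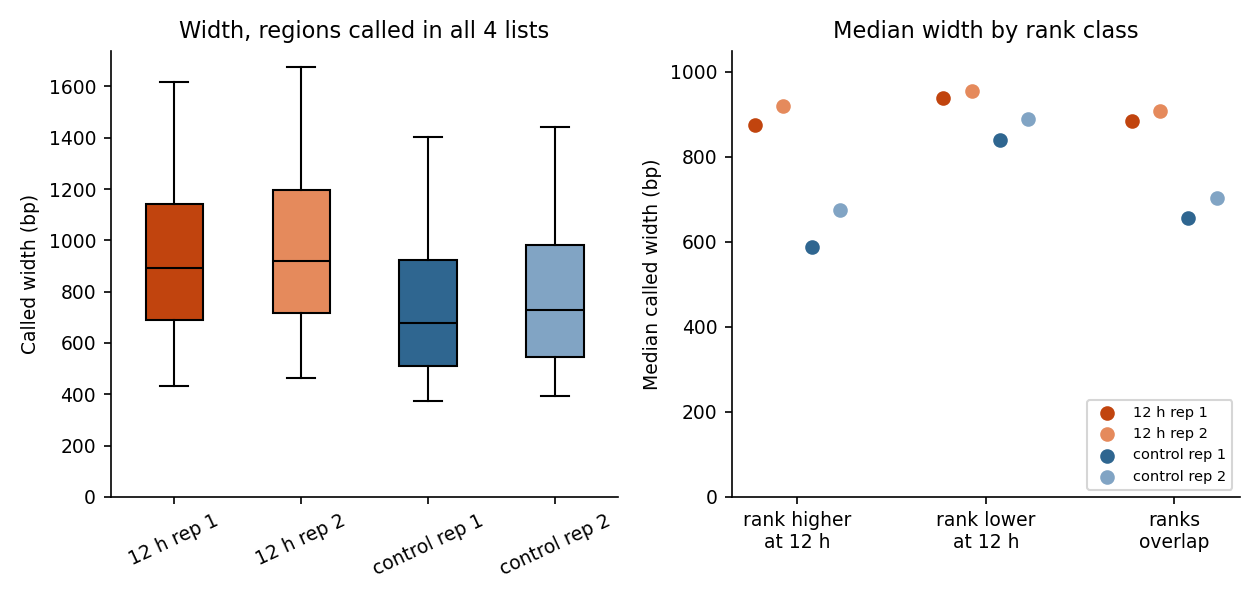
Left, called width in bp of the 2798 regions called in all 4 lists by library, as box plots (line, median; box, quartiles; whiskers, 5th to 95th percentile); right, the median width in bp by rank class, 1 point per library. Both 12 h medians, 892 and 921 bp, lie above both control medians, 679.5 and 727.5 bp, and the groups lie closest in the class that ranked lower at 12 h.

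The 5 regions with the largest relative gain in width, among the 2529 with exactly 1 call in every list, differed by over 1000 bp. Regions with several calls in a list were not named for width, and the largest log2 gain in relative width over all 571 wider regions was 1.99, against 1.65 for the first named here. The region chr6:10469459-10471262 was called over 1683 and 1797 bp at 12 h, against 426 and 434 bp in control, and over 1671 and 1690 bp at 3 h. The region chr10:19675440-19676988 was called over 1442 and 1549 bp at 12 h and 373 and 382 bp in control. Its 3 h widths were 581 and 722 bp, so the broad call there was found in the 12 h lists and not in the 3 h lists. On chromosome 7, the region from 25348295 to 25350008 spanned 1702 and 1707 bp at 12 h and 476 and 407 bp in control, and the region from 4889733 to 4891345 spanned 1463 and 1449 bp at 12 h and 397 and 382 bp in control. The region chr8:496963-499311 spanned 2214 and 2132 bp at 12 h and 789 and 465 bp in control. The chromosome 10 calls in control, 373 and 382 bp, were the narrowest that those lists hold. So was the 382 bp control call of the chromosome 7 region from 4889733.

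The opposite pattern was found as well, and the 5 regions given come from the same single-call set. The region chr9:21946102-21947709 was called over 500 and 372 bp at 12 h and 1527 and 1592 bp in control. Its 372 bp call was the narrowest that its list holds. The region chr5:4256173-4258086 spanned 691 and 510 bp at 12 h and 1914 and 1288 bp in control, and chr4:14742713-14744305 spanned 622 and 598 bp at 12 h and 1489 and 1535 bp in control. The 3 h lists called these chromosome 5 and chromosome 4 regions over 1718 to 2051 bp, as broadly as the control lists or more so. The region chr8:22876166-22877544 spanned 542 and 558 bp at 12 h and 1322 and 1366 bp in control, and chr7:5890843-5892600 spanned 354 and 587 bp at 12 h and 754 and 1477 bp in control. In all 5 regions both 12 h calls were narrower than both control calls, as the choice of the regions requires.

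The fold divides the summit by its surroundings, so 2 summits of unlike coverage can have like folds. The number of fragments at the summit was therefore read as well, a choice made after the data were seen. Its median at the shared regions was 20 and 19 fragments at 12 h and 18 in each control, which is 13.4 and 13.3 times the genome background at 12 h and 7.40 and 8.98 times in control. The local background at the same summits was 2.16 and 2.24 times the genome background at 12 h and 1.66 and 1.77 times in control. Ranked by summit coverage, 788 regions (28.2%) were higher in both 12 h lists and 734 (26.2%) were lower. Of the regions higher by fold, 68.8% were also higher by coverage and 2.87% were lower. Of the regions lower by fold, 65.5% were lower by coverage and 12.1% were higher. By width, 35.5% of the regions with higher coverage rank were relatively wider and 13.5% narrower, while 5.99% of those with lower coverage rank were wider and 57.2% narrower. Over all shared regions 20.4% were wider and 30.5% narrower, and where coverage ranks overlapped 19.4% and 25.6%.

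The 5 largest gaps in coverage rank in each direction, also picked after their values were seen, were several-fold in fragments. The region chr1:26033464-26034810 had 54 and 55 fragments at its summit in the 12 h libraries and 12 and 11 in the controls. The region chr2:5804780-5806352 had 36 and 40 at 12 h and 9 and 10 in control. The broadly called chromosome 6 region from 10469459 had 34 and 37 at 12 h and 9 in each control. All 3 were also high at 3 h, with 34 to 59 fragments. On chromosome 7, the region from 25348295 had 41 and 43 fragments at 12 h and 12 in each control, and the region from 25591319 to 25592743 had 32 and 29 at 12 h and 11 and 9 in control. The fold of the region from 25348295 differed less, at 4.59 and 4.64 in the 12 h lists and 3.23 and 3.50 in the control lists, and the local background there was 5.47 and 5.94 times the genome background at 12 h and 1.24 and 1.35 times in control.

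In the other direction, the chromosome 5 region from 4256173, one of those called narrower, had 12 and 9 fragments at 12 h and 41 and 43 in control. On the same chromosome, the region from 23386847 to 23388588 had 13 and 8 at 12 h and 49 and 44 in control. The region chr12:862001-863094 had 11 and 12 at 12 h and 41 and 47 in control. At 3 h these 3 regions had 27 to 41 fragments, above every 12 h value. These fragment numbers are not scaled to depth: the genome background was 1.49 and 1.43 fragments at 12 h and 2.43 and 2.004 in control. The region chr6:6027954-6029237, listed above for its fold, had 11 and 12 at 12 h and 41 and 43 in control. The region chr1:27417901-27420040 had 7 and 13 at 12 h and 40 and 37 in control. The last pair had 22 or 23 fragments in each 3 h library, between the other groups.

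**Figure D4:**
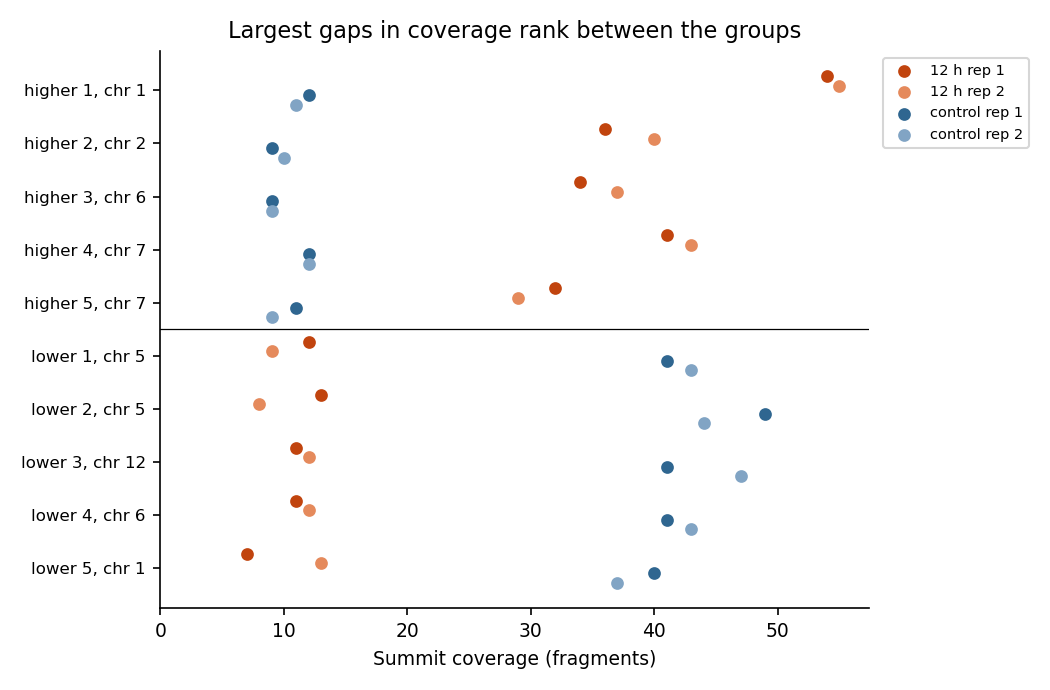
Summit coverage in fragments (horizontal axis) of the 5 regions with the largest upward gap in coverage rank (top) and the 5 with the largest downward gap (bottom), labelled by chromosome; each point is 1 library, 12 h in orange and control in blue. The upper regions had 29 to 55 fragments at 12 h and 9 to 12 in control, and the lower ones 7 to 13 at 12 h and 37 to 49 in control.

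At the median, the 3676 regions called in both 12 h lists and neither control list were weaker and narrower than the shared regions. Within their whole lists they stood near the middle, at median percentiles of 46.8 and 45.8 by fold. Their median fold was 3.99 and 3.98 in the 12 h lists, against 4.75 and 4.71 for the shared regions of the same lists, and their median width 579 and 607 bp. Only 21.4% and 22.8% of them exceeded the median fold of the shared regions in their list, and 359 (9.77%) did so in both lists. Their summits stood on a median of 12 fragments. Strength graded with the number of control lists that also called a region. Regions of both 12 h lists that 1 control list called had median folds of 4.35 and 4.32 and widths of 695 and 723 bp, and those that both control lists called had 4.75 and 4.71 and widths of 892 and 921 bp.

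For regions called in both control lists, the median fold was 3.57 and 3.69 where no 12 h list called them, 3.52 and 3.66 where 1 did, and 3.84 and 4.04 where both did. The 197 control-only regions were 635 and 656 bp wide at the median, not far below the 679.5 and 727.5 bp of shared regions in the same lists. In control replicates 1 and 2, 37.1% and 33.0% of them exceeded the median fold of the shared regions, and 37 (18.8%) did so in both lists. No test sets that share apart from the 9.77% of the 12 h-only class. Within their whole lists the control-only regions stood at median percentiles of 46.7 and 45.2 by fold, close to those of the 12 h-only class.

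**Figure D5:**
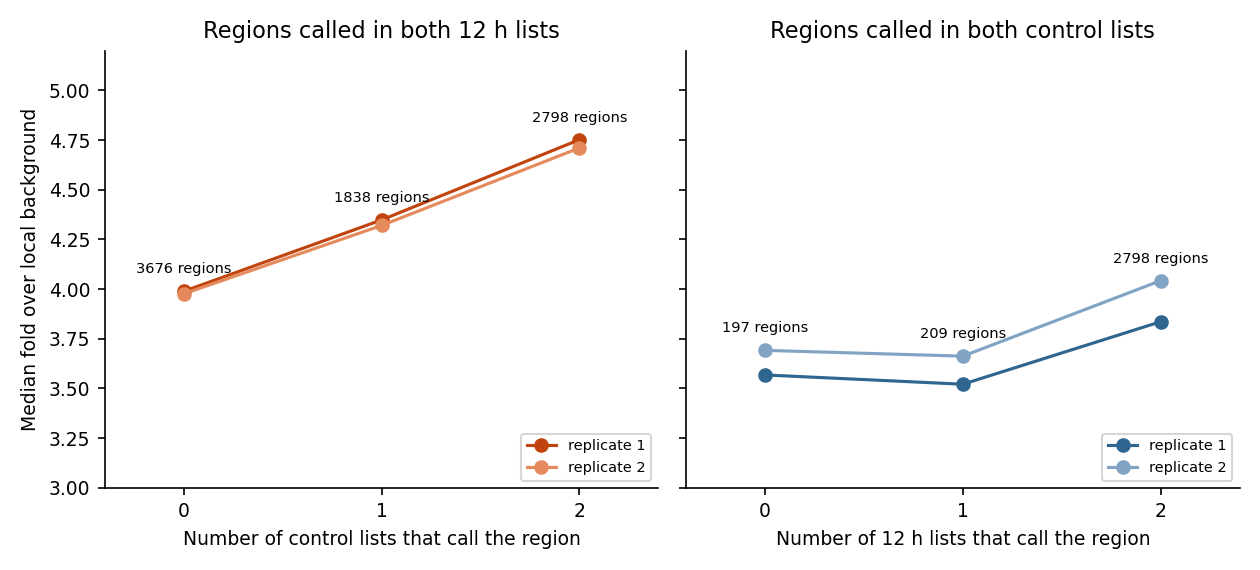
Median fold over local background (vertical axis, from 3) of regions called in both 12 h lists (left) or both control lists (right), by the number of lists of the other group that call them; lines join the medians of 1 library. On the left the median runs from 3.99 and 3.98 at 0 control lists to 4.75 and 4.71 at 2; on the right it is 3.57 and 3.69 at 0, 3.52 and 3.66 at 1 and 3.84 and 4.04 at 2 12 h lists.

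Among the 12 h-only regions, the strongest by the smaller of its folds was chr7:11268866-11269476, at 8.76 and 7.75, on 25 and 20 fragments. The nearest region called in any control list was 50077 bp away. On chromosome 3, the regions from 21179885 to 21180635 (7.33 and 7.79) and from 9117457 to 9118492 (7.25 and 8.16) lay 59753 and 37814 bp from a control call. Chromosome 6 held the regions from 10553831 to 10554837 (7.32 and 7.48) and from 4202313 to 4202902 (6.89 and 6.999). The region chr10:798506-799575 had folds of 8.51 and 7.25 and chr1:41854041-41855378 of 7.11 and 9.13. The 3 h lists called all of these regions, with folds of 3.92 to 7.41. The exception among the 8 was chr10:10897948-10898461, with folds of 7.15 and 7.09 on 18 and 19 fragments at 12 h, which neither 3 h list called. The 12 h and 3 h comparisons share their control libraries, so a missing control call is common to both.

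Among the control-only regions, chr11:6287357-6288012 had folds of 6.41 and 6.99 in the control lists and lay 82514 bp from the nearest 12 h call. The region chr3:25219813-25221130 had 6.26 and 7.05 over 1205 and 1193 bp. The region chr8:95888-96898 had 5.94 and 5.71, with a 12 h call 4496 bp away. On chromosome 5, the regions from 7250183 to 7251363 (5.37 and 5.45) and from 7415311 to 7416535 (5.30 and 6.09) lay 32213 and 11871 bp from a 12 h call. The region chr12:25445055-25446306 (5.27 and 6.73), chr7:22427811-22428581 (5.04 and 6.67) and chr9:2783228-2783792 (5.88 and 4.99) completed the 8. Both 3 h lists called 6 of the 8, with folds of 3.92 to 5.66, and 3 h replicate 2 alone called those on chromosomes 11 and 8.

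Most 12 h-only regions lay beyond 10000 bp from any control call. The control lists are short, and the distance of a random position from a control call was not computed. The nearest call of any control list was a median of 18933.5 bp away, and only 60 (1.63%) lay within 1000 bp of one, while 2618 (71.2%) lay beyond 10000 bp. Those within 1000 bp were the weakest, with median folds of 3.50 and 3.46, against 4.02 in each list for those beyond 10000 bp. Control-only regions lay a median of 7195 bp from a 12 h call, and 15 (7.61%) were within 1000 bp of one. The 12 h lists hold more regions, which by itself places a 12 h call nearer. Set against the same landmark, the median distance to a region of all 4 lists was 42386 bp for 12 h-only regions and 36043 bp for control-only regions, and 34757 bp between one such region and the next.

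Along the chromosomes, rank by fold in the interior was higher at 12 h than in control. The ends were taken as the start of a chromosome and its highest position called in any list of the series. The 781 shared regions over 10 Mb from both ends had median percentiles of 57.3 and 57.5 in the 12 h lists. In the control lists they had 52.1 and 51.6. At the 523 regions under 2 Mb from an end, the median was 41.9 and 39.8 at 12 h and 43.4 and 45.2 in control. The interior exceeded the ends by 15.4 and 17.7 points at 12 h and by 8.65 and 6.38 points in control (exact permutation p = 0.333, the smallest possible; distances set after the data were seen). Ranked by summit coverage, the same difference was -4.88 and -10.6 points at 12 h and -12.7 and -5.81 points in control (exact permutation p = 0.667), and here the groups overlapped. Local background was lower in the interior than near the ends in every library. Near the ends it was 2.43 and 2.55 times the genome background at 12 h and 1.78 and 1.94 times in control. In the interior it was 1.88 and 1.93 times at 12 h and 1.503 and 1.58 times in control. The interior minus the ends was -0.56 and -0.62 at 12 h and -0.28 and -0.36 in control (exact permutation p = 0.333, the smallest possible).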

How the data were processed

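Peak lists of 4 H3K9ac libraries, 2 of leaves infested for 12 h and 2 of control leaves, were compared. The submitters' processing notes name MACS2 2.1.0, Bowtie 1.1.2, Trimmomatic 0.33, bcl2fastq 2.17 and build IRGSP-1.0. The sources used here do not give their settings, the handling of duplicates or an input control. The deposited lists, called per library, give each peak a fold over local background (a ratio), −log10 p-value, −log10 q-value (1.30 or more, a q of 0.05) and a score, which was not used. The fold is the authors' value within its own list.

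Summits listed under one interval were joined into 1 region with the fold of the strongest. Summit coverage, in whole fragments, and local background were recovered from the deposited fold and −log10 p for 100% of peaks (tolerance 0.001); each list's lowest local background was taken as its genome background, and its narrowest region as the fragment length. Positions are 1-based.

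Values per library were compared by exact two-sided permutation tests with Benjamini-Hochberg adjustment (Python 3.11.15, scipy 1.17.1). The functions that merge, rank and class regions and recover coverage were tested on simulated lists, and the permutation tests were not. Named regions were the 8 with the largest rank gap each way, the 5 with the largest relative width gap each way among regions with exactly 1 call in every list, and the 8 strongest of each group-only class; those named for coverage were added after their values were seen. The regions, lists and rules were chosen with earlier results of these data known. Same-numbered replicates did not deviate together (correlation -0.03 for rank, 0.01 for width). Pathway gene lists were planned but not used, as no annotation of the build was at hand. Alternatives were stricter q, equal list lengths, 200 bp overlap, other rank and width scales, a replicate block and leaving out each library.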

Additional observations from a re-analysis of the deposited data

Results flagged for a closer look

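Outside the 12 nuclear chromosomes, unplaced scaffolds held 10 and 9 peaks in the 12 h lists, more than the 6 and 7 of the control lists. As a share of the whole list these were 0.0797% and 0.0740% at 12 h and 0.117% and 0.124% in control, so the order turned round once list length was taken into account. The chloroplast genome held 29 and 28 peaks at 12 h and 28 and 29 in control, and the mitochondrial genome 28 and 19 at 12 h and 37 and 31 in control.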

How the results depend on the processing

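With −log10 q of at least 5 there were 736 regions in all 4 lists and 1596 in the 12 h lists alone. Of the 736, 154 ranked higher, 172 ranked lower, 147 were relatively wider and 237 relatively narrower at 12 h. In the main setting these were 592, 678, 571 and 853 of 2798. Counts of this kind fall with the number of regions compared and are to be read against it. With lists of equal length there were 1727 regions in all 4 lists, 717 in the 12 h lists alone and 673 in the control lists alone. Of the 1727, 366 ranked higher, 431 ranked lower and 352 were relatively wider. That setting fixes regions per list, so it gives no value for them. Both settings remove the weaker regions by construction. Ranks over whole lists gave 953 higher and 416 lower, and widths in bp 1398 wider and 236 narrower. Leaving out 1 library gave 295 to 617 regions in the control lists alone and 4379 to 5993 in the 12 h lists alone. The remaining lists then shared 2896 to 3933 regions. Of these, 990 to 1395 ranked higher and 1042 to 1453 ranked lower, while 886 to 1281 were relatively wider and 1201 to 1736 relatively narrower. Fewer lists make each rule easier to meet. Pairing same-numbered replicates as a replicate block gave 802 higher, 860 lower, 733 wider and 1059 narrower regions, and the log2 ratios per library stayed at 1.18 for regions and 1.25 for covered length with a smallest possible exact p of 0.5. With an overlap of at least 200 bp, or with ranks of −log10 p or of coverage, every count stayed within 1.5 times. Named regions have a value only where a setting still finds them. With −log10 q of at least 5 no region named for rank remained, and of those named for width only chr8:22876166-22877544. With lists of equal length none of those named for a lower rank remained. Of the values left, 62 moved by more than the replicate spread, 257 did not and none changed sign. Folds of group-only regions are positive and cannot change sign. The cause was not tested. Coverage of about 12 to 20 fragments limits the ranking of single regions.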

Other observations

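All 367 full windows of 1 Mb held at least 1 region called in both 12 h lists and neither control list, with a median of 9. The fullest was chromosome 4 from 34000001 to 35000000, with 25 such regions and none called in the control lists alone, beside 14 called in all 4 lists. Control-only regions were found in 138 windows, at most 4 in any. The windows with 4 were chromosome 3 from 11000001 to 12000000 and chromosome 7 from 1 to 1000000.

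The windows with the most shared regions of higher or lower rank were picked because they were extreme. Over all 2798 shared regions, 21.2% ranked higher and 24.2% ranked lower. On chromosome 7 from 4000001 to 5000000, 7 of 9 shared regions ranked higher at 12 h and 2 ranked lower. On chromosome 2, 6 of the 20 shared regions from 1 to 1000000 ranked higher and 0 ranked lower, while 10 of the 21 from 5000001 to 6000000 ranked lower and 4 higher. Over whole chromosomes, the share of shared regions that ranked higher ran from 17.0% on chromosome 10 to 28.1% on chromosome 7, and the share that ranked lower from 20.4% on chromosome 11 to 27.6% on chromosome 6. Chromosome 5 had the most 12 h-only regions relative to its shared ones, 322 to 204, and chromosome 6 the fewest, 280 to 243. None of these differences between windows or chromosomes was tested.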
